A study of Mus musculus with 6 samples.

Results

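Activity-induced genes are transcribed within minutes to hours of neuronal firing, and 10 of them were followed in the brains of mice fed a liver-derived diet. They were the synaptic effectors Arc, Homer1 and Nptx2, the transcription factor Npas4, the nuclear receptors Nr4a1, Nr4a2 and Nr4a3, the antiproliferative factors Btg1 and Btg2, and Ier2. They were chosen by symbol, as were the gene lists below, with earlier results of these data known. Shares called among them are therefore no independent comparison with all features. A row belonged to the set when its Ensembl identifier carries that symbol in GENCODE release M21. All 10 were found among the 60354 features of the count tables, and all 10 were among the 18580 features that passed the filter on low counts. Counts of single genes in single mice lay between 236 for Ier2 and 6046 for Arc, and the set together took between 0.0662% and 0.0903% of a mouse's counts.

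The mice were male C57BL/6NCrSlc, an inbred strain with no engineered allele, and were 16 weeks old when feeding began. PLDP mice (mice 17, 22 and 26) ate a modified AIN-93M diet containing 20% PLDP, a protease-treated decomposition product of porcine liver, for 16 weeks, and control mice (mice 2, 5 and 10) ate a modified AIN-93M diet matched for calories. Both groups then went through the open field, elevated plus maze, forced swim, marble burying, Y-maze and Barnes maze tests, received no PLDP during that time, and gave whole-brain RNA the day after the last maze test. The question put to these genes was whether their transcripts differed between 3 PLDP and 3 control brains. How the 6 mice were picked from the tested cohorts is not given in the sources used here.

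Libraries held between 18797061 and 23938729 counts on genes. PLDP mouse 17 stood apart: its counts differed from those of the other 5 mice by a chi-square of 4.48 to 5.33 per degree of freedom, while the other 10 pairs of mice lay between 2.36 and 4.47. Values for the 10 genes are therefore given with that mouse and without it. No pair of mice agreed as closely as repeat counts of a single library would. The neuronal markers Rbfox3, Snap25, Syt1 and Stmn2 summed to between 3572 and 3694 CPM (counts per 1000000, after TMM scaling of the library sizes) in control mice and between 3588 and 3698 in PLDP mice. Tubb3, also on that list, was not found among the features.

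When a neuron fires, calcium entering through glutamate receptors and channels activates kinases that act on transcription factors already bound to DNA, among them CREB, SRF and MEF2. Immediate early genes such as Npas4, Nr4a1, Btg2 and Ier2 then rise within minutes without new protein synthesis. Effector genes such as Arc, Homer1 and Nptx2 carry the response to the synapse, where their products alter glutamate receptors. In whole brain the transcripts come from many regions and cell types at once, and a smaller number of expressing cells cannot be told apart from less RNA per cell.

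Because CREB is known to act on many activity-induced genes, the 250 bases before their RefSeq starts were searched for the letters of its binding site. RefSeq promoter windows (build GRCm38.p6) were matched for 7 of the 10 genes in 8 windows. The core TGACG, read on both strands, stood in at least 1 window of all 7 genes, against 17.8% of 32851 windows of the same length over all genes. Those windows were not matched to the 7 genes for G and C content, which is given below. Windows are shown 5′ to 3′ on the gene's own strand, in lower case, with TGACG, or CGTCA where it lies on the opposite strand, in capitals. Windows that hold cores and no exon bases of GENCODE are shown whole, because the values of these genes are described next.
Homer1 (chr13:93303507-93303756, plus strand): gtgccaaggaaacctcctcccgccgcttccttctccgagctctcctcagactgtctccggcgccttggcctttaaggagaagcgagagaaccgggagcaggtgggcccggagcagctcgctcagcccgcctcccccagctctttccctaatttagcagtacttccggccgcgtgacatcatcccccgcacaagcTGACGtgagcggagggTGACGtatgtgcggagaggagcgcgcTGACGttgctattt
Nr4a1 (chr15:101266596-101266845, plus strand): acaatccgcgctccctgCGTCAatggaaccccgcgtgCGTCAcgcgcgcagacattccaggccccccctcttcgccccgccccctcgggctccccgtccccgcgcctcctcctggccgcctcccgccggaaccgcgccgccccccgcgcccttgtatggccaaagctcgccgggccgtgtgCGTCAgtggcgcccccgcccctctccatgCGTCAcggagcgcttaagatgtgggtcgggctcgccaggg
Nr4a2 (chr2:57124004-57124253, minus strand): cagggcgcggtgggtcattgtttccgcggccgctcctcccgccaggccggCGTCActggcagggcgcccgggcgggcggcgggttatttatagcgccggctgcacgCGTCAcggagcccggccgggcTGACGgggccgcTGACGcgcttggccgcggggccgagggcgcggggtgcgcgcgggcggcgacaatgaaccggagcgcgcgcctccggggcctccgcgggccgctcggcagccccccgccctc
Btg1 (chr10:96616751-96617000, plus strand): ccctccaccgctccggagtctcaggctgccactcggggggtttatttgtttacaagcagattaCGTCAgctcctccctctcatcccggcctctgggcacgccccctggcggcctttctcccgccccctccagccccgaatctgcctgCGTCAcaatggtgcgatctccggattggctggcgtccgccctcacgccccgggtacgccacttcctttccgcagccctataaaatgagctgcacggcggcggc
Btg2 (chr1:134079156-134079405, minus strand): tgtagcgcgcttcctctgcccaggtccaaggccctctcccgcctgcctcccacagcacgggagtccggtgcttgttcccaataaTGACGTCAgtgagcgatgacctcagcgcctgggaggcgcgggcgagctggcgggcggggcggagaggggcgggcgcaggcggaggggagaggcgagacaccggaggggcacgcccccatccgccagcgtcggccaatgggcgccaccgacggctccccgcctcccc
The Npas4 and Nr4a3 windows overlap GENCODE exons, so only the 30 bases around a facing pair of cores are shown.
Npas4 (chr19:4990129-4990158, minus strand): ccgttcgaCGTCAcgggaTGACGtcggaag
Nr4a3 (chr4:48045085-48045114, plus strand): cccatgtCGTCAcatTGACGtctcgcattc

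Homer1 carries 3 cores, at 56, 40 and 14 bases before the start, all on the gene's strand. The second Homer1 window, chr13:93307784-93308033, carries none. Nr4a1 carries 4 cores, at 233, 213, 69 and 40 bases before the start, all on the opposite strand, and Nr4a2 carries 4, at 200, 144, 123 and 111, with a pair on each strand. Nr4a3 carries 4, at 231, 213, 205 and 147 bases, Npas4 carries 2, at 179 and 169, and Btg1 carries 2, at 187 and 103. Btg2 holds the complete palindrome TGACGTCA from 166 to 159 bases before the start, where the cores of both strands overlap, and it was found in no other of the 8 windows and in 1.55% of all windows. The Homer1 and Nr4a1 windows shown lie inside the span that GENCODE gives the gene, between exons of longer transcripts, and the Btg1, Btg2 and Nr4a2 windows lie upstream of it.

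Other motifs of activity-regulated promoters were searched in the same windows on both strands. The AP-1 site TGANTCA, the CArG box bound by SRF and the site AAAGGTCA bound by the Nr4a receptors were in none of the 8 windows, and in 6.75%, 1.47% and 1.34% of all windows. The windows of these genes held between 46.8% and 80.0% G and C, against a median of 52.4% over all windows. A match is a description of letters, and its absence says only that these letters are not in these 250 bases.

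Of the 10 genes, 4 were higher with PLDP by edgeR's quasi-likelihood test when its p was left unadjusted and set against 0.05, the study's threshold: Arc, Homer1, Nptx2 and Nr4a2. Over all 18580 features tested, 4.91% were called higher. Btg1 alone was called lower, as were 3.69% of all features, and Npas4, Nr4a1, Nr4a3, Btg2 and Ier2 did not pass. The fold change was positive in 9 of 10 genes with a median of 0.17 on the log2 scale, and the median of all features tested was −0.00062. The changes were small, between −9.91% and 20.8% of the control mean.

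No gene of the set passed at a Benjamini-Hochberg adjusted p under 0.05 over all features, where 0.0323% of features passed in either direction (6 features). Adjusted values by edgeR ran from 0.194 for Nptx2 to 0.916 for Ier2, and 5 genes passed unadjusted. By DESeq2 and by limma voom none passed after adjustment either, with 3 adjusted values not given by DESeq2. With edgeR's likelihood ratio test 1 gene passed, and with no filter on low counts 3 did. The share of all features that passed in those fits is not given here. With no filter the standard error of Arc was 0.044, against 0.108 with the filter, over the same mice.

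All 3 PLDP mice lay above all 3 control mice for Nptx2 and Nr4a2, an order that 7.29% of all features showed, and all 3 lay below for Btg1, as in 6.90% of all features. For the other 7 genes the groups overlapped. An exact permutation test over 3 against 3 mice cannot give a two-sided p under 0.1, which Nptx2, Nr4a2 and Btg1 reached.

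**Figure D1:**
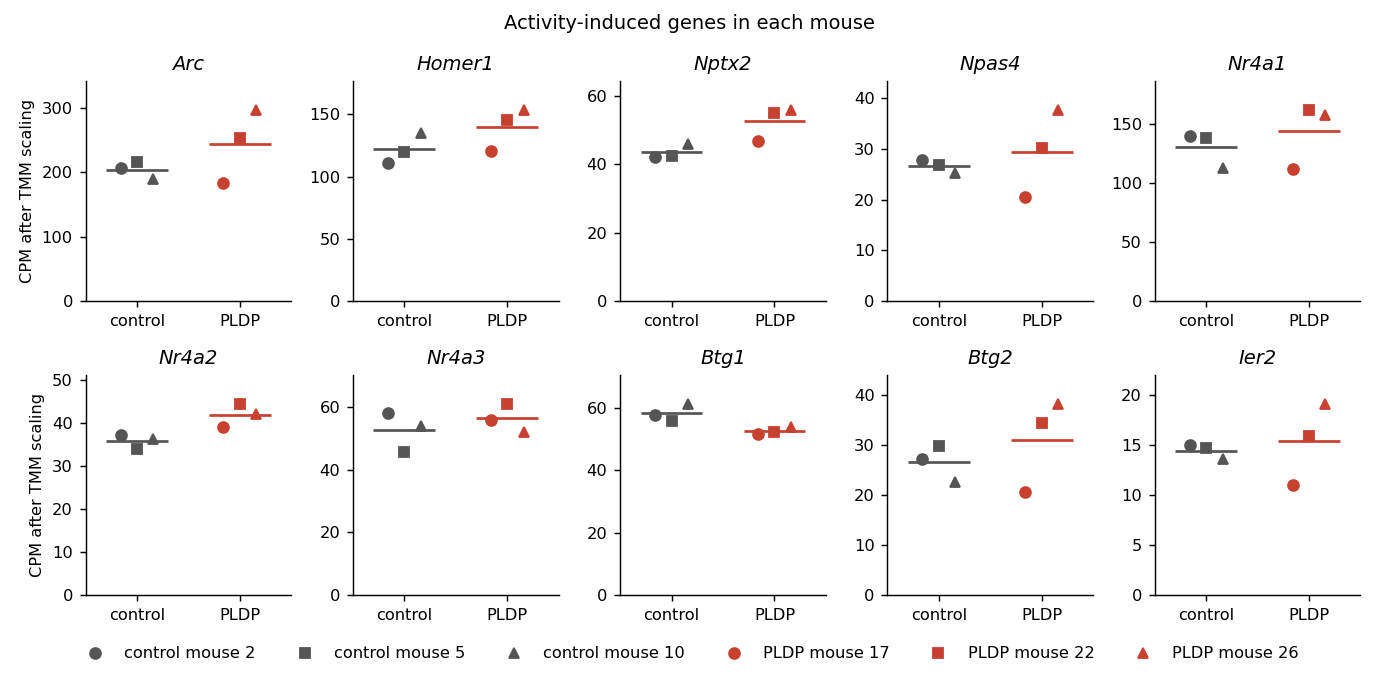
CPM after TMM scaling (vertical axes, linear from 0, a separate scale for each gene) in each of 3 control mice (grey) and 3 PLDP mice (red), with marker shape giving the mouse and horizontal lines the group means. Nptx2 and Nr4a2 separate upward and Btg1 downward, and PLDP mouse 17 (red circle) is the lowest of the 6 mice for Arc, Npas4, Nr4a1, Btg1, Btg2 and Ier2.

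Levels between genes can be compared only per length, so CPM were divided by the length of the merged exons. Arc was the most abundant, with 73.5 CPM per kb of exon as the mean of 6 mice and a range from 60.0 to 97.3. Nr4a1 followed with 39.0 (31.9 to 46.1) and Nptx2 with 18.9 (16.6 to 22.0), and the ranges of these 3 genes did not overlap each other or those of the other genes. Homer1 at 10.9, Btg1 at 10.5, Btg2 at 10.5, Ier2 at 9.78, Nr4a2 at 9.56 and Nr4a3 at 9.10 CPM per kb had ranges that all overlapped, from 7.21 to 13.9 over these 6 genes. Npas4 was lowest at 6.78 (4.96 to 9.10), and its range overlapped those of Btg2, Ier2, Nr4a2 and Nr4a3. Homer1 has 12 annotated transcripts whose merged exons span 11976 bases, which this value averages over.

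**Figure D2:**
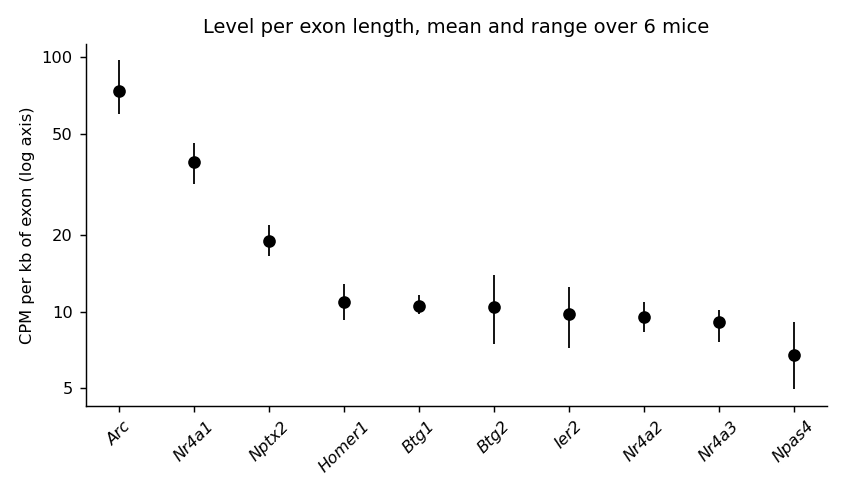
CPM per kb of merged exon (vertical log axis) for the 10 genes, ordered by mean. Points are means over 6 mice and lines run from the lowest to the highest mouse. Arc at 73.5, Nr4a1 at 39.0 and Nptx2 at 18.9 stand clear of each other, and the remaining 7 genes lie between 6.78 and 10.9.

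Arc encodes a capsid-like protein that drives AMPA receptor endocytosis at active synapses (ENSMUSG00000022602, chromosome 15 of GRCm38 from 74669083 to 74672570, minus strand). It was at 207, 216 and 191 CPM in control mice 2, 5 and 10 and at 183.5, 253.5 and 297 CPM in PLDP mice 17, 22 and 26. PLDP mouse 17 was below every control mouse and the other 2 PLDP mice were above every control mouse, so the groups overlapped. The group means were 204 ± 12.8 and 245 ± 57.4 CPM (SD over 3 mice, as for the genes that follow). The log2 fold change was 0.26 ± 0.11 (SE), with an unadjusted p = 0.0285 and adjusted p = 0.513 by edgeR and an exact permutation p = 0.4. The call rested on single mice. It was kept when PLDP mouse 17 or control mouse 5 was left out and lost when any of the other 4 mice was, with a fold change as low as 0.10 without PLDP mouse 26. It was also lost by DESeq2 and by limma voom, with log2 fold changes of 0.26 and 0.23, and without control mouse 2 the fold change was 0.27. Without PLDP mouse 17 the log2 fold change was 0.43 ± 0.06 and the adjusted p 0.000336 by edgeR, the smallest of the 10 genes.

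Homer1 encodes postsynaptic scaffolds that link metabotropic glutamate receptors to Shank proteins and intracellular calcium stores, and its short activity-induced form uncouples them (ENSMUSG00000007617, chromosome 13 from 93299635 to 93405129, plus strand). The files count the gene as a whole, so the short and long forms cannot be told apart. Its levels were 111, 119.9 and 134.9 CPM in control mice 2, 5 and 10 and 120.5, 145 and 154 CPM in PLDP mice 17, 22 and 26. PLDP mouse 17 lay within the control range and the other 2 above it. The mean was 122 ± 12.01 CPM in control and 139.9 ± 17.3 CPM in PLDP mice. The log2 fold change was 0.20 ± 0.08, with an unadjusted p = 0.0194 and adjusted p = 0.461 by edgeR and an exact permutation p = 0.2. DESeq2 did not call it, at a log2 fold change of 0.20, and of the fits without a mouse the call stood only without PLDP mouse 17 or control mouse 10. The fold changes of the fits that lost it were between 0.12 (PLDP mouse 26 left out) and 0.18 (control mouse 5 left out). Without PLDP mouse 17 the log2 fold change was 0.29 with an adjusted p of 0.0145 by edgeR.

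Nptx2, also known as Narp, is a secreted pentraxin that clusters AMPA receptors at excitatory synapses onto interneurons (ENSMUSG00000059991, chromosome 5 from 144545902 to 144557478, plus strand). The control mice had 42.1, 42.55 and 45.8 CPM and the PLDP mice had 46.8, 55.0 and 55.9 CPM. Every PLDP mouse was above every control mouse, with PLDP mouse 17 nearest to them. The means were 43.5 ± 2.04 and 52.6 ± 5.035 CPM, 20.8% apart, and the log2 fold change was 0.27 ± 0.07 with an unadjusted p = 0.000786 and adjusted p = 0.194 by edgeR and an exact permutation p = 0.1. The call stayed in all 6 fits that left out a mouse and in all 7 other settings, with log2 fold changes from 0.23 to 0.35. With PLDP mouse 17 left out its log2 fold change was 0.35 with an adjusted p of 0.0025 by edgeR.

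Proteins that work with these effectors were followed in 3 lists, beside the 4.91% of all features called higher. Of 8 partners of Homer1, the scaffold genes Shank1 and Shank2 were called higher (both log2 fold changes 0.21, adjusted p = 0.147 and 0.261 by edgeR) with every PLDP mouse above every control mouse, and the other 6 did not pass. Without PLDP mouse 17 the partners of Homer1 had 4 calls higher, with Shank3 (0.10) and Homer2 (0.13) added, and Homer3 was called lower (−0.16). In that fit 6.86% of all features were called higher and 5.69% lower. With all mice, of 6 partners of Arc, Dlg4, the gene of PSD-95, was called higher (log2 fold change 0.13, adjusted p = 0.326 by edgeR). None of the 4 partners of Nptx2 passed. Nptx1 had a log2 fold change of 0.05 ± 0.04 and Gria1 of 0.02 ± 0.04.

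Npas4 is a neuronal bHLH-PAS transcription factor induced by calcium entry, and it controls inhibitory synapses and Bdnf (ENSMUSG00000045903, chromosome 19 from 4984355 to 4990316, minus strand). Its levels were 27.85, 26.9 and 25.2 CPM in control mice 2, 5 and 10 and 20.5, 30.1 and 37.6 CPM in PLDP mice 17, 22 and 26. The PLDP mice took the lowest place and the 2 highest places, with all control mice between them. The coefficient of variation was 4.99% among control and 29.2% among PLDP mice, and the means were 26.6 ± 1.33 and 29.4 ± 8.58 CPM. The log2 fold change was 0.14 ± 0.14, with an unadjusted p = 0.339 and adjusted p = 0.834 by edgeR and an exact permutation p = 0.7. It turned to −0.070 when PLDP mouse 26 was left out and reached 0.34 (adjusted p = 0.0566 by edgeR) when PLDP mouse 17 was. The genes of its dimer partners Arnt and Arnt2 had log2 fold changes of 0.10 ± 0.06 and −0.08 ± 0.04, neither past the threshold. The ratio of Arc to Npas4 was between 7.42 and 8.03 in control and between 7.90 and 8.95 in PLDP mice (exact two-sided permutation p = 0.2).

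The Nr4a genes encode orphan nuclear receptors that bind DNA without a classical ligand and take part in memory consolidation. Of the 3, Nr4a2 was higher in PLDP mice, and Nr4a1 and Nr4a3 did not pass. Nr4a2, also called Nurr1 and needed for midbrain dopamine neurons (ENSMUSG00000026826, chromosome 2 from 57106830 to 57124003, minus strand), was at 37.1, 33.8 and 36.3 CPM in control mice and at 39.0, 44.4 and 42.0 CPM in PLDP mice. The groups did not overlap, and PLDP mouse 17 was again the PLDP mouse nearest to the controls. The means were 35.75 ± 1.70 and 41.8 ± 2.72 CPM, and the log2 fold change was 0.23 ± 0.06 with an unadjusted p = 0.00221 and adjusted p = 0.291 by edgeR and an exact permutation p = 0.1. The call stayed in all 6 fits without a mouse (0.18 to 0.28) and in all 7 other settings. Without PLDP mouse 17 the adjusted p was 0.0282. Of 4 tested markers of midbrain dopamine neurons, 0 were called by edgeR at the unadjusted threshold, a number too small to set against the 4.91% of all features called higher and 3.69% called lower. All 5 listed markers summed to between 57.5 and 62.8 CPM in control and between 51.1 and 60.8 CPM in PLDP mice, and their part in the Nr4a2 level was not tested.

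Nr4a1, or Nur77, is the most abundant of the family here (ENSMUSG00000023034, chromosome 15 from 101254269 to 101274795, plus strand). It was at 139.5, 138 and 113 CPM in control mice 2, 5 and 10 and at 112, 162 and 157 CPM in PLDP mice 17, 22 and 26. Control mouse 10 and PLDP mouse 17 shared the low end, and PLDP mice 22 and 26 were the highest. The log2 fold change was 0.14 ± 0.10, with an unadjusted p = 0.182 and adjusted p = 0.745 by edgeR and an exact permutation p = 0.6. Without PLDP mouse 17 it was 0.29 with an adjusted p of 0.0256. It was 0.043 without PLDP mouse 22, 0.050 without control mouse 10 and 0.074 without PLDP mouse 26, none of them called. With no filter on low counts it was called as well (adjusted p = 0.27 by edgeR).

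Nr4a3, or Nor1 (ENSMUSG00000028341, chromosome 4 from 48045153 to 48086447, plus strand), was at 58.1, 45.7 and 54.0 CPM in control mice and at 55.7, 61.05 and 52.1 CPM in PLDP mice. Its groups overlapped throughout, and it was the gene of the set that changed least when PLDP mouse 17 was left out, from a log2 fold change of 0.10 ± 0.08 to 0.11. With all mice the unadjusted p = 0.199 and adjusted p = 0.754 were from edgeR, and the exact permutation p = 0.5. Leaving out control mouse 5, the lowest, brought it to 0.0086, and leaving out control mouse 2, the highest control, to 0.18, which edgeR called. The ratio of Nr4a1 to Nr4a2 was on average 3.65 in control and 3.41 in PLDP mice (exact two-sided permutation p = 0.5) and that of Nr4a1 to Nr4a3 2.5 and 2.56 (p = 0.9, same exact test). The genes of the RXR receptors with which Nr4a1 and Nr4a2 can pair, Rxra, Rxrb and Rxrg, had log2 fold changes between −0.05 and 0.02 and none passed.

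Btg1 and Btg2 are related antiproliferative factors that bind the CCR4-NOT deadenylase and speed the decay of mRNAs. Btg1 was lower in the PLDP mice and Btg2 did not pass. Btg1 (ENSMUSG00000036478, chromosome 10 from 96617006 to 96622809, plus strand) was at 57.7, 55.9 and 61.4 CPM in control mice and at 51.6, 52.3 and 53.8 CPM in PLDP mice. Its groups did not overlap, the PLDP mice being the lower ones, and PLDP mouse 17 was close to the other PLDP mice. The means were 58.3 ± 2.81 and 52.55 ± 1.12 CPM, and the log2 fold change was −0.15 ± 0.05 with an unadjusted p = 0.011 and adjusted p = 0.421 by edgeR and an exact permutation p = 0.1. The call stayed in 5 of 6 fits without a mouse and in all 7 other settings, and was lost without control mouse 10 (−0.11). Without PLDP mouse 17 the log2 fold change was −0.14 and still called.

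Btg2, a target of p53 and a marker of recently active neurons (ENSMUSG00000020423, chromosome 1 from 134075170 to 134079120, minus strand), was at 27.1, 29.7 and 22.65 CPM in control mice and at 20.5, 34.25 and 38.2 CPM in PLDP mice. Its PLDP values spread more widely than its control values, with coefficients of variation of 30.0% and 13.5%, and the groups overlapped. The log2 fold change was 0.22 ± 0.15, with an unadjusted p = 0.169 and adjusted p = 0.737 by edgeR and an exact permutation p = 0.6. It was 0.45 with an adjusted p of 0.013 without PLDP mouse 17, and 0.05 without PLDP mouse 26. With no filter on low counts edgeR called it at 0.22 (adjusted p = 0.231). The ratio of Btg2 to Btg1 was 0.470, 0.532 and 0.369 in control mice and 0.398, 0.655 and 0.711 in PLDP mice. Its groups overlapped (exact two-sided permutation p = 0.3). Of 7 tested genes of related Btg and Tob proteins and deadenylases, 0 were called by edgeR, where 4.91% of all features were called higher and 3.69% lower, and Tob1, with the smallest p among them, had a log2 fold change of −0.15 ± 0.08.

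Ier2 encodes a short-lived nuclear protein induced with the immediate early genes (ENSMUSG00000053560, chromosome 8 from 84661331 to 84662852, minus strand), and was the gene with the fewest counts. Its levels were 14.96, 14.7 and 13.6 CPM in control mice and 11.0, 15.9 and 19.1 CPM in PLDP mice, the same order of mice as for Npas4. The coefficient of variation was 5.15% among control and 26.8% among PLDP mice. The log2 fold change was 0.08 ± 0.14, with an unadjusted p = 0.56 and adjusted p = 0.916 by edgeR and an exact permutation p = 0.8. It was 0.27 without PLDP mouse 17 (adjusted p = 0.215 by edgeR) and −0.10 without PLDP mouse 26. Of the related genes Ier3, Ier5 and Ier5l, none passed, with log2 fold changes from 0.05 to 0.08.

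PLDP mouse 17 had the lowest level of the 6 mice for 6 of 10 genes, compared with 21.0% of all features tested. PLDP mice 22 and 26 were both above all control mice for 8 of 10 genes, all except Nr4a3 and Btg1, compared with 14.7% of all features. For Arc, Npas4, Nr4a1, Btg2 and Ier2 both held. Mouse 17 was also the library that stood apart over all genes, and its part in these values was not tested.

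When PLDP mouse 17 was left out, 8 genes were called higher at the same unadjusted threshold, as were 6.86% of all features tested, and Btg1 remained lower, as were 5.69%. Nr4a3 was the gene without a call. At an adjusted p under 0.05 by edgeR, Arc, Homer1, Nptx2, Nr4a1, Nr4a2 and Btg2 were higher, 6 of 10 genes, compared with 0.769% of all features in that direction. PLDP mouse 17 was the lowest PLDP mouse for all 6, so leaving it out raised their fold changes by construction. The median log2 fold change of the 10 genes was 0.29 in that fit, and that of all features −0.00324. That fit has 2 PLDP mice. Its standard errors were smaller for all of the genes except Nr4a3 and Btg1, from 0.11 to 0.06 for Arc and from 0.15 to 0.09 for Btg2, and about the same for Nr4a3 (0.076 and 0.079) and Btg1 (0.053 in both fits). Leaving out PLDP mouse 22 or PLDP mouse 26 left 2 genes called higher in either fit, Nptx2 and Nr4a2, where 4.20% and 3.91% of all features were called higher.

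**Figure D3:**
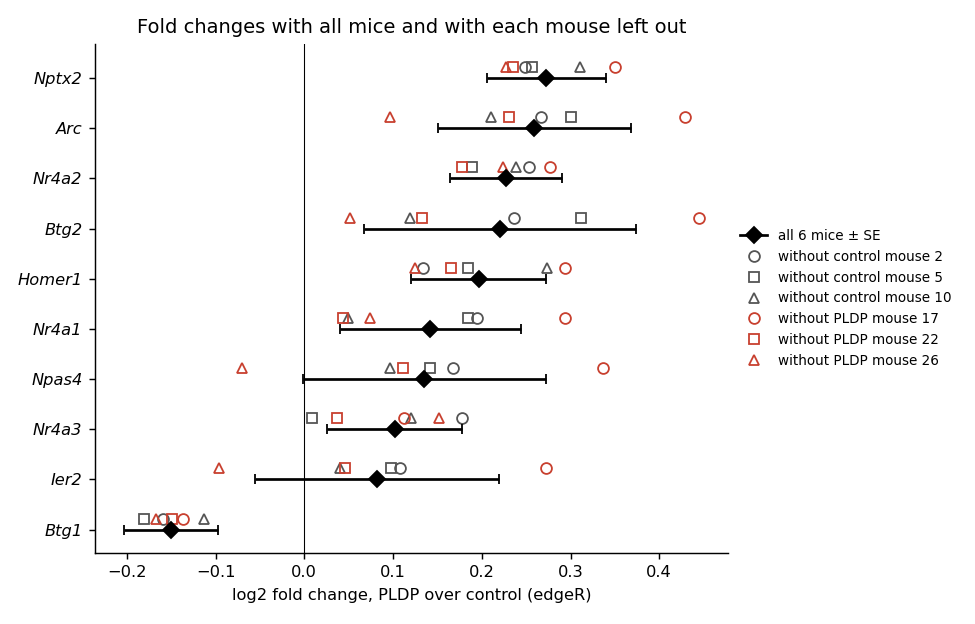
Log2 fold changes of PLDP over control by edgeR (horizontal axis) for the 10 genes, with all 6 mice (black diamonds, bars ± SE) and with each mouse left out (open symbols, grey for control and red for PLDP mice). Leaving out PLDP mouse 17 gives the highest value for 8 genes, with Arc at 0.43 and Btg2 at 0.45, and leaving out PLDP mouse 26 takes Npas4 and Ier2 below 0.

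Levels of Arc, Npas4, Nr4a1, Btg2 and Ier2, a group formed after their values were seen, went together from mouse to mouse. Over the 6 mice, Pearson's r of log2 CPM was between 0.85 and 0.995 for their 10 pairs, and Spearman's rho between 0.886 and 1.0. After the mean of each diet was removed r was between 0.847 and 0.998, and without PLDP mouse 17 it was between 0.757 and 0.997 over 5 mice. These values are a description of 6 libraries and were not tested. Homer1 and Nptx2 had an r of 0.921 over the 6 mice and 0.960 after the diet means were removed, and Nptx2 and Nr4a2 of 0.906 and 0.678. Nr4a3 had an r of −0.007 and −0.240 with Arc and of 0.671 and 0.716 with Nr4a2, in the same order. The r of Btg1 with Arc was −0.357 over the 6 mice and 0.141 after the diet means were removed.

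Genes with a similar pattern were sought among 11517 named genes with a mean of at least 5 CPM, by Pearson's r of log2 CPM over the 6 mice. The genes most like Arc were Dusp1 (0.991), Ppm1l (0.989) and Rai14 (0.986), and 46 genes had an r above 0.95. Those most like Npas4 were Ier2 (0.995), Zkscan1 (0.989) and Usp53 (0.987), with 35 above 0.95. Rgs16 (0.99), Rnf144b (0.989) and Snap25 (0.989) were most like Nr4a1, with 34 above 0.95. Raver2 (0.994), Egr1 (0.993) and Egr2 (0.988) were most like Btg2, with 43 above 0.95. With 6 points such values occur for many genes, and the size of the change differed widely, since Snap25 ran only from 1832 to 1917 CPM.

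The AP-1 and Egr genes encode transcription factors that are often used as activity markers. For Fos, Fosb, Egr1, Egr2 and Egr3, PLDP mouse 17 was the lowest of the 6 mice and PLDP mice 22 and 26 were above all control mice. For the other genes tested these did not hold together. Of 12 listed genes 11 were tested, 7 had a positive fold change and 3 were called higher by edgeR, beside 4.91% of all features: Fosb (log2 fold change 0.19 ± 0.09), Fosl2 (0.26 ± 0.08) and Egr3 (0.18 ± 0.08). Their adjusted p by edgeR were 0.579, 0.306 and 0.561. Fos was at 60.6, 61.1 and 54.5 CPM in control mice and at 42.6, 67.9 and 75.8 CPM in PLDP mice, with mouse 17 lowest. Egr1 was at 224.5, 237 and 207 CPM in control mice and at 204, 257 and 272 CPM in PLDP mice, and neither it nor Fos passed the threshold. The median log2 fold change of the list was 0.08. It was 0.25 without PLDP mouse 17, when 6 of 11 were called higher, beside 6.86% of all features. Without PLDP mouse 22 or PLDP mouse 26 only 1 gene of the list was called higher, beside 4.20% and 3.91% of all features. Jun, Jund and Atf3 had negative values with all mice and without PLDP mouse 17.

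Of 40 other activity-induced genes, 14 were called higher and 0 lower by edgeR at the unadjusted threshold, compared with 4.91% and 3.69% of all features, and 32 had a positive fold change, with a median of 0.09. This list was chosen with earlier results of these data known, so the shares of all features are not an independent comparison. For 12 of the 40 all PLDP mice lay above all control mice, as for 7.29% of all features. Bdnf, the growth factor of activity-dependent plasticity, was at 20.9, 20.2 and 21.1 CPM in control mice and at 25.3, 25.6 and 29.2 CPM in PLDP mice (log2 fold change 0.36 ± 0.07, adjusted p = 0.0911 by edgeR). Vgf, a neuropeptide precursor, was at 223.5, 216 and 207 CPM in control mice and at 241, 261 and 278 CPM in PLDP mice (0.27 ± 0.05, adjusted p = 0.0735 by edgeR). For both, PLDP mouse 17 was above every control mouse, unlike for Arc and Npas4. The phosphatase genes Dusp4 (0.35) and Dusp5 (0.25) and the kinase genes Plk2 (0.17) and Plk3 (0.23) separated the diets in the same way. Klf4 (0.87) and Ccn1 (0.63) had the largest fold changes of the 14 and are also known from vascular cells. The remaining calls were Dusp1, Per1, Trib1, Inhba, Csrnp1 and Nfil3, between 0.10 and 0.35. None of the 40 passed after adjustment over all features, and 17 of 40 were called higher when PLDP mouse 17 was left out, as were 6.86% of all features. The number was 7 without PLDP mouse 22 and 9 without PLDP mouse 26, beside 4.20% and 3.91% of all features.

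**Figure D4:**
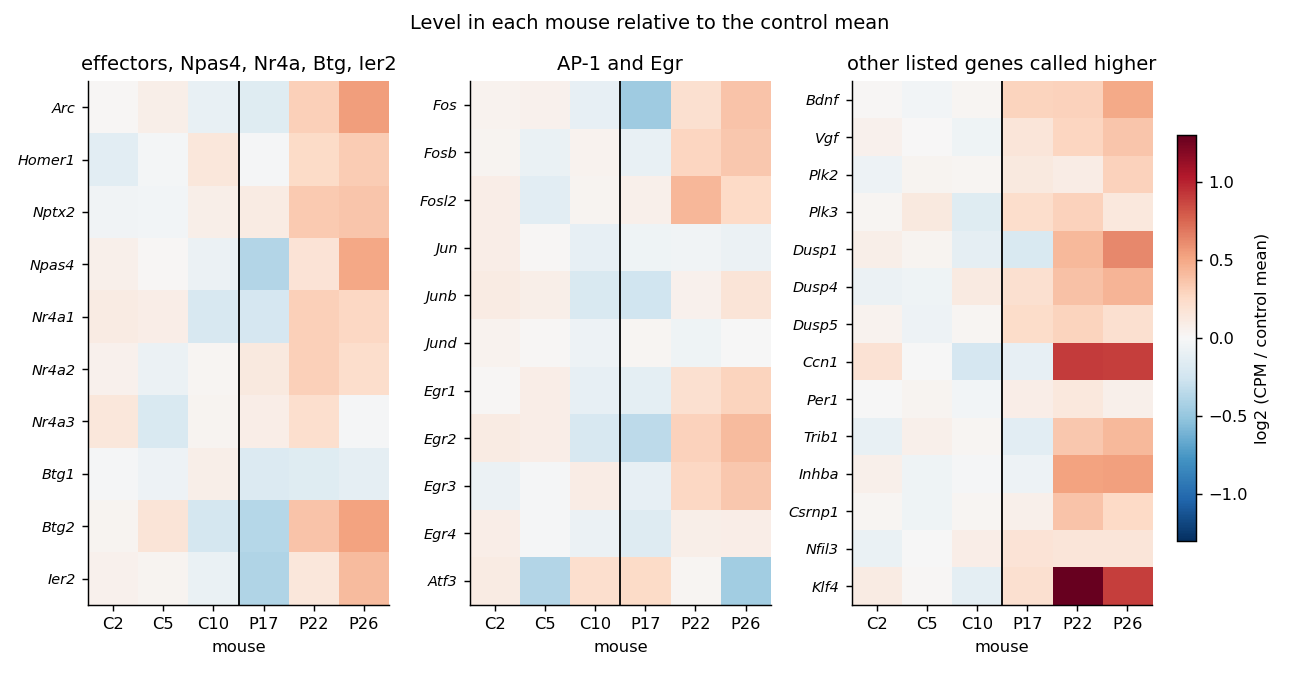
Log2 ratio of the CPM in each mouse to the mean of the control mice (colour, red above and blue below) for the 10 genes, the 11 tested AP-1 and Egr genes, and the 14 other activity-induced genes that were called higher and are shown because of that. Columns are control mice 2, 5 and 10 and PLDP mice 17, 22 and 26. PLDP mouse 17 is blue for Arc, Npas4, Nr4a1, Btg2, Ier2, Fos and Egr2, and red for Bdnf, Vgf, Dusp4 and Dusp5.

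Regulators upstream of these genes were followed in a list of 38 kinases, receptors, coactivators and transcription factors. Of these 7 were higher and 1 was lower, compared with 4.91% and 3.69% of all features, and 30 had a positive fold change, with a median of 0.06 on the log2 scale. The CREB coactivator gene Crebbp (log2 fold change 0.21 ± 0.06), the ternary complex factor gene Elk4 (0.27 ± 0.08) and the NMDA receptor gene Grin2b (0.19 ± 0.05) were among the higher ones. Camk2a (0.10), Mrtfa (0.15), Mrtfb (0.12) and Hdac5 (0.11) were the others. Mef2a, a calcium-responsive transcription factor gene, was lower (−0.10 ± 0.04). These calls are at the unadjusted threshold of edgeR, and their adjusted values ran from 0.256 for Crebbp to 0.497 for Mrtfb. The counts were 13 higher and 2 lower when PLDP mouse 17 was left out, where 6.86% of all features were called higher and 5.69% lower.

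Regional and cell type markers were followed because whole-brain RNA depends on what tissue a sample holds. Of 21 lists, the glucocorticoid response described last among them, summed levels separated the diets upward in 1, downward in 4 and overlapped in 16, and no sum can reach an exact permutation p under 0.1. The 6 markers of cortical and hippocampal projection neurons, cells in which Arc, Npas4 and Egr1 are readily induced, summed to between 1716 and 1829 CPM in control and between 1863 and 1923 CPM in PLDP mice. Of them Nrgn and Fezf2 were called higher, beside 4.91% of all features, and none was at 0. PLDP mouse 17 had the highest sum, while it had the lowest Arc and Npas4. The 6 markers of hindbrain and spinal cord summed to between 138 and 151 CPM in control and between 74.8 and 108 CPM in PLDP mice. Of them 6 of 6 were called lower, as were 3.69% of all features, with a median log2 fold change of −0.84. Without PLDP mouse 17 the values were 5 of 6 and −0.996, where 5.69% of all features were called lower. With all mice Slc6a5 passed after adjustment too (adjusted p = 0.0369 by edgeR). None of those was at 0 in any mouse. Sums were also lower for hypothalamus (41.9 to 43.1 against 33.9 to 40.5 CPM), microglia (300.0 to 314 against 291 to 296 CPM) and choroid plexus (737 to 795 against 578.5 to 735 CPM). The median log2 fold changes of these lists were −0.09, −0.04 and −0.18, and without PLDP mouse 17 they were −0.07, −0.05 and 0.03. The part of these differences in the levels of the 10 genes was not tested.

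Genes of the glucocorticoid response, some of which neuronal activity also induces, were followed beside them. Of 7 listed genes all 7 had a positive fold change and 5 were called higher, beside 4.91% of all features, Fkbp5 (0.24), Zbtb16 (0.79), Per1 (0.10), Hif3a (0.81) and Cdkn1a (0.32), with Per1 counted in the activity list too. Their summed level overlapped between diets, from 379 to 443.5 CPM in control and from 428 to 480 CPM in PLDP mice. White blood cell markers summed to at most 3.10 CPM, and the 4 pituitary markers to at most 0.433 CPM, each at 0 in some mouse. Of 6 endothelial markers, Pecam1 (log2 fold change 0.25) and Flt1 (0.14) were called higher, beside 4.91% of all features, while Slco1a4 (−0.14) and Kdr (−0.10) had negative values. The median of the 6 was 0.08, and −0.0072 without PLDP mouse 17. The summed level of the 6 overlapped between the diets, from 183 to 188 CPM in control and from 185.5 to 202.5 CPM in PLDP mice, with PLDP mouse 17 highest. Their part in the results was not tested.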

How the data were processed

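Whole-brain RNA of 3 control and 3 PLDP mice was extracted with TRIZOL, made into stranded libraries of polyadenylated RNA and sequenced on a NovaSeq. The authors deposited 1 table of raw, whole-number read counts per gene and mouse, without normalization and without pooling. The submitters' processing notes name cutadapt 2.9, HISAT2 2.2.0, featureCounts 2.6.0 and DESeq2 1.6.3 with the builds GRCm38 and GRCh38. The annotation and the strand setting of the counting are not given in the sources used here, so reads of overlapping genes may be shared. No exon base of the 10 genes is shared with another gene in GENCODE M21.

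Each mouse was 1 replicate, assigned to its diet by the label, with between 18797061 and 23938729 counts. The p-values measure the spread between these mice, though not in full with no filter on low counts. The test was edgeR 4.0.16 (R 4.3.3). filterByExpr, set to 10 as the lowest count and 15 as the lowest total, chose the features, which were scaled by TMM and fitted over the whole table with diet as the term (glmQLFit, glmQLFTest, two-sided). A feature was called at an unadjusted p under 0.05, the threshold of the study, with Benjamini-Hochberg adjusted values over all features beside it. Likeness between genes was computed on log2 (CPM + 0.5). Ratios and summed marker levels were compared by exact permutation tests.

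Alternatives were DESeq2 1.42.0, limma voom (3.58.1), the likelihood ratio test of edgeR, scaling by relative log expression or by library size alone, no filter, a floor of 10 counts in each mouse, and leaving out each mouse. Named genes were the 10 members, in each list the genes with an unadjusted p under 0.05 and otherwise up to 2 with the smallest p, and the 3 genes most like Arc, Npas4, Nr4a1 and Btg2. Further genes were chosen after their values were seen. The members and the lists were chosen with earlier results of these data known. Promoter windows were taken from RefSeq (GRCm38.p6). Python 3.11.15 with pandas 2.3.3 and matplotlib 3.10.9 served for tables and plots. The behavioural measurements were not analysed here.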

Additional observations from a re-analysis of the deposited data

How the results depend on the processing

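The number of the 10 genes called higher was 4 with all mice, 2 by DESeq2 and between 2 and 8 when a mouse was left out, 8 without PLDP mouse 17 and 2 without PLDP mouse 22 or PLDP mouse 26. The number called lower was 1, and between 0 and 1 without a mouse, 0 without control mouse 10. Of 130 fold changes over the 10 genes and 13 alternatives, 109 kept their direction and their side of the threshold, 12 lost the call, 7 gained a call and 2 reversed. Those were Npas4 and Ier2 without PLDP mouse 26, and their leave-one-out fold changes ran from −0.070 to 0.34 and from −0.10 to 0.27. Leave-one-out fold changes of the called genes ran from 0.10 to 0.43 for Arc, 0.12 to 0.29 for Homer1, 0.23 to 0.35 for Nptx2, 0.18 to 0.28 for Nr4a2 and −0.18 to −0.11 for Btg1. With no filter on low counts Arc, Homer1 and Nptx2 passed after adjustment (adjusted p = 8.08e-06, 0.0164 and 0.00409 by edgeR). That fit gave Arc a standard error of 0.044, against 0.108 with the filter, from the same mice. Its p-values therefore do not carry the full spread of a gene between mice.

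Over all features, 913 were called higher, 564 by DESeq2 and 640 to 1293 without a mouse, and 685 lower, 1046 with no filter, 362 by DESeq2 and 493 to 1072 without a mouse. The AP-1 and Egr genes called higher, 3 with all mice, were 1 by DESeq2, 1 by limma voom and 1 to 6 without a mouse. The other activity-induced genes ranged from 7 to 17 called higher and from 0 to 1 called lower without a mouse, and the upstream regulators from 5 to 13 and from 0 to 2. The cause of these shifts was not tested. No paired analysis was possible because the diets share no mouse numbers. The lowest count of the 10 genes was 236, for Ier2, and 3 mice a diet limit every gene.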
